A study of Mus musculus with 7 samples.

Results

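The transcription factors described here are Spi1, Irf8, Irf5, Ikzf1, Runx1, Cebpa, Cebpb, Fli1 and Mef2c, which act in the formation and identity of myeloid blood cells. They were chosen by name, with earlier results of these data known, as were the gene lists set beside them. Each factor was read from its probe with the highest mean over 7 arrays among probes annotated to that symbol alone. All 9 were found among 18193 genes with such a probe, and all 9 passed a filter on dim probes that left 14453 genes for testing. The samples were 3 tertiary and 4 secondary gliomas of the mouse, measured on Affymetrix arrays. In both groups the glioma cells were of C57/Bl6 background and overexpressed the growth factor PDGF-B and the fluorescent protein EGFP from a shared transcript, and all hosts were of the NOD/SCID strain, which has no working adaptive immunity but keeps microglia and other myeloid cells. A secondary glioma grew from a graft of an early onset, low grade primary tumour, and a tertiary glioma grew from a graft of a secondary glioma. RNA came from cells sorted for EGFP, a gate that would remove host cells without the transgene, and the sources used here do not give the purity of the sort. The labels name biological replicates but not the primary tumour, donor or host of each, nor the ages or what drove the transgene, and p-values therefore measure the spread between these samples.

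Spi1 encodes PU.1, an ETS factor that macrophages, microglia and granulocytes need to form, and Irf8 encodes an interferon regulatory factor that binds DNA beside PU.1 and is needed for microglia and monocytes. Cebpa and Cebpb encode C/EBP factors of granulocyte and macrophage development and of inflammatory gene expression, while Runx1, Ikzf1 and Fli1 act earlier, in blood stem and progenitor cells, and persist in mature leukocytes. Irf5 drives inflammatory cytokine genes in macrophages, and Mef2c is used by muscle, neurons, endothelium and lymphoid and microglial cells.

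In tertiary gliomas 6 of the 9 factors fell, none rose and 3 did not pass the test, against 6.33% of all 14453 genes called lower and 1.04% called higher (limma, adjusted p under 0.05). The 6 were Fli1, Irf8, Cebpa, Ikzf1, Spi1 and Mef2c, with log2 fold changes between -3.90 and -2.53. Runx1, Cebpb and Irf5 were not called. The number of factors called was 6 or 7 whichever sample was left out, while over all genes leaving out tertiary glioma 1 gave 1857 calls in place of 1066, leaving out tertiary glioma 2 gave 647 calls, and 653 were made when tertiary glioma 3 was left out. The median over the 9 was -2.65, and the median over all genes tested was 0.09. In 8 of the 9 every tertiary value lay below every secondary value, an arrangement found in 11.2% of all genes tested, and only Irf5 overlapped. The RNA came from many sorted cells together, and the purity of the sort is not known here. Fewer cells of a type in the tumour, fewer passing the sort and less RNA per cell cannot be told apart. Markers of microglia and macrophages were lower in the same samples, with 24 of 25 called lower, and their part in the change of the factors was not tested.

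**Figure D1:**
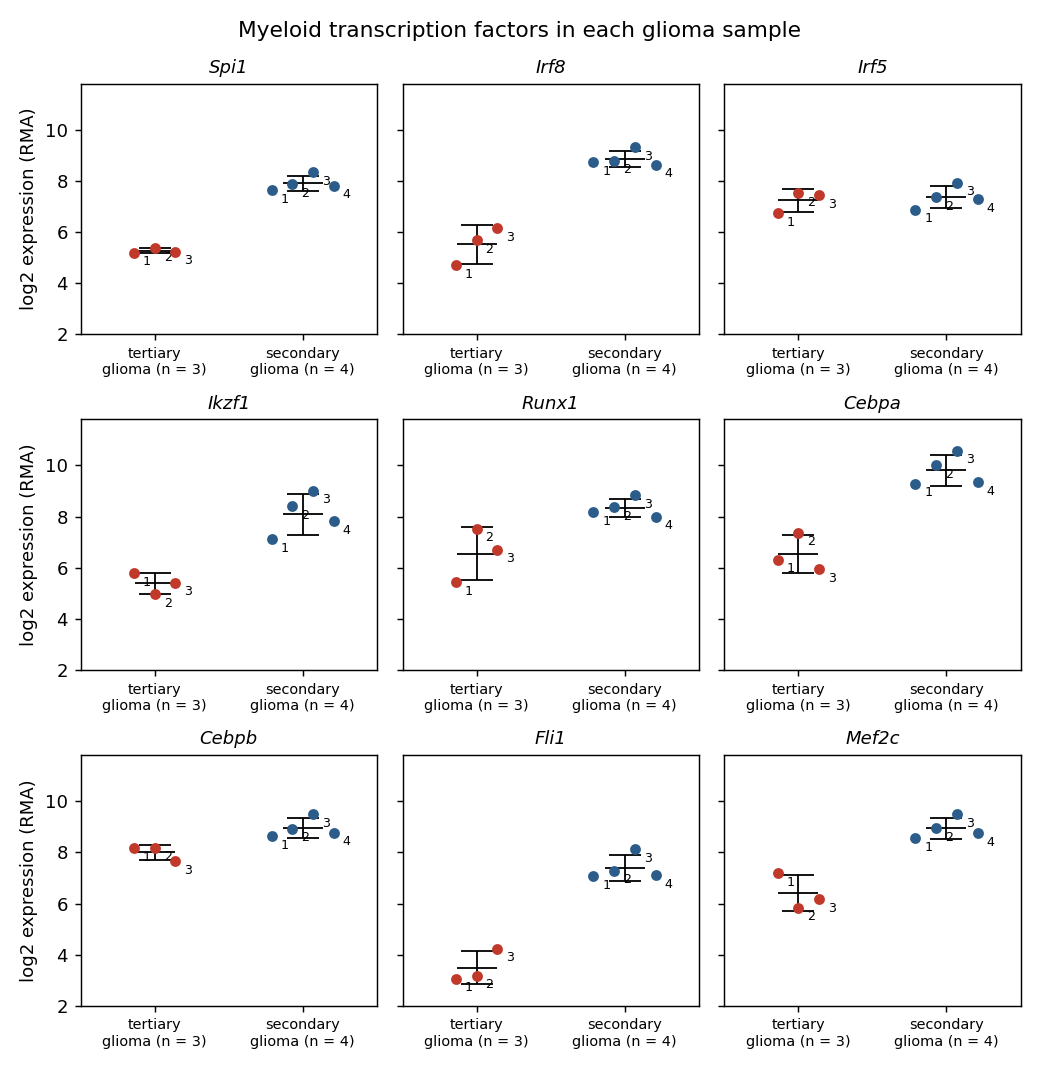
Log2 expression (vertical axis, RMA values) of each factor in 3 tertiary gliomas (red, left) and 4 secondary gliomas (blue, right), with sample numbers, the group mean and the SD as bars. The groups are apart in 8 panels and overlap in the panel of Irf5, and secondary glioma 3 is the highest secondary sample in all 9 panels.

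Spi1 separated the groups with the least scatter. Its log2 level was 5.19, 5.37 and 5.22 in tertiary gliomas 1 to 3, against 7.63, 7.87, 8.32 and 7.81 in secondary gliomas 1 to 4. The 3 tertiary values lay within 0.17 of each other, the narrowest tertiary range of the 9 factors, and the gap to the nearest secondary value was 2.26. The log2 fold change was -2.65 ± 0.18 (SE, n = 3 and 4; adjusted p = 0.000113), which put the mean tertiary level at 16.0% of the secondary level.

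Irf8 fell further but varied more among tertiary gliomas. It stood at 4.69, 5.67 and 6.16 in tertiary gliomas 1 to 3 and at 8.73, 8.79, 9.32 and 8.63 in secondary gliomas 1 to 4. Tertiary glioma 1 was the lowest, and all 3 tertiary values were below all 4 secondary values by at least 2.47. The log2 fold change was -3.36 ± 0.34 (adjusted p = 0.000723), and the other Irf8 probe gave -3.36 as well (adjusted p = 0.00408 over all probes).

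Promoter sequences are shown for a factor with a large change (Irf8), for the pair of C/EBP genes that changed by unequal amounts and for Mef2c, to set beside each other genes that moved together and a gene that was not called. RefSeq sequences of build GRCm38.p6 were matched for 7 of the 9 factors; Spi1 and Fli1 are named only. Each line gives the 250 bases before the transcription start, taking the start furthest 5′ where the table lists several, and capitals mark the ETS core GGAA on either strand, which reads TTCC on the other.
Irf8 (chr8:120736108-120736357, plus strand): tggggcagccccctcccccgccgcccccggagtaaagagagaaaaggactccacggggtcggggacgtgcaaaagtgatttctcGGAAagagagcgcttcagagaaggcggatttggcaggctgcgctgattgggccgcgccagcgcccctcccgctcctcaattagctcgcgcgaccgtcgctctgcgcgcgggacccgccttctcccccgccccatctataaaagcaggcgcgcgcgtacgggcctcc
Cebpa (chr7:35119043-35119292, plus strand): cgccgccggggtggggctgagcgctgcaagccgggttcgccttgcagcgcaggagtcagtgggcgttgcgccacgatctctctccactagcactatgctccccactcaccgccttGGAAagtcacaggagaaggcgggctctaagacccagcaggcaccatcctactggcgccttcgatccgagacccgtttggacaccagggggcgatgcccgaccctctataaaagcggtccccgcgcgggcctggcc
Cebpb (chr2:167688665-167688914, plus strand): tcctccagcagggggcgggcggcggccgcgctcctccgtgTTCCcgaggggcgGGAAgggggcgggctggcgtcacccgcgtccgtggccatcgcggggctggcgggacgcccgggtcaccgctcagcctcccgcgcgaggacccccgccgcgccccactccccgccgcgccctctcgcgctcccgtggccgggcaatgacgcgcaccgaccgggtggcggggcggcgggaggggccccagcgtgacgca
Mef2c (chr13:83503784-83504033, plus strand): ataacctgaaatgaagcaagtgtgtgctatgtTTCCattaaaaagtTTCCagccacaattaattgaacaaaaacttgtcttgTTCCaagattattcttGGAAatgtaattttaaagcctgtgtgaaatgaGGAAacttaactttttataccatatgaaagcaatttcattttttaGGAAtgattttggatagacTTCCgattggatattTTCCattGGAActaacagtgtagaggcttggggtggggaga
The ETS core occurred 9 times in the Mef2c window, 2 times in that of Cebpb and 1 time each in those of Irf8 and Cebpa, and 93.4% of 32851 promoter windows of this length held it at least once. The longer purine-rich box GAGGAA, found in 23.3% of all windows, was present in the Mef2c window alone among the 7. The Irf8 window held the STAT-type element TTCNNNGAA, read on both strands, beginning at positions -171 and -153 relative to the start, and the match at -171 overlaps its GGAA. The Mef2c window held it too, beginning at -157 and overlapping a GGAA. That element occurred in 7.02% of all windows. None of the 7 windows held the C/EBP-type TTGCNNAA, the RUNX-type TGTGGT or the interferon response element (a pair of GAAA blocks 2 bases apart) on either strand, which says only that these letters are not in these windows.

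The C/EBP genes parted. Cebpa had log2 levels of 6.31, 7.38 and 5.94 in tertiary gliomas 1 to 3, against 9.29, 10.02, 10.58 and 9.35 in secondary gliomas 1 to 4. Its 3 tertiary values were spread over 1.44 and still lay 1.91 or more below the secondary values. The log2 fold change was -3.27 ± 0.42 (adjusted p = 0.00258), so the mean tertiary level was 10.4% of the secondary level.

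Cebpb had log2 levels of 8.16, 8.18 and 7.65 in tertiary gliomas, against 8.64, 8.94, 9.49 and 8.77 in secondary gliomas. The groups did not overlap, with a gap of 0.46, but the log2 fold change of -0.96 ± 0.24 was not called (adjusted p = 0.0543; 95% interval -1.51 to -0.40). With a filter at the 50th percentile of probes the same change had an adjusted p of 0.0446, and with array weights Cebpb stood at -0.99 with an adjusted p of 0.0161. The other Cebpb probe gave -0.04, and its groups overlapped. Between Cebpa and Cebpb the changes differed by -2.31 on the log2 scale (two-sided exact permutation test over 35 splits, p = 0.0286, the smallest this design can give; adjusted p = 0.0381 over 4 pairs of factors compared).

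Among the factors of early blood formation, Fli1 showed the largest change of the 9. Its tertiary values were 3.06, 3.18 and 4.23, against 7.06, 7.29, 8.13 and 7.10 in secondary gliomas. Tertiary gliomas 1 and 2 lay below the dim filter, a log2 value of 3.99 that is the 25th percentile of probe means, and the tertiary mean of 3.49 ± 0.64 (SD) did too, while tertiary glioma 3 stood above it. Fli1 had a log2 fold change of -3.90 ± 0.36 (SE; adjusted p = 0.000417), and its other probe gave -4.33. The change of Spi1 was smaller than that of Fli1 by 1.26 on the log2 scale (exact permutation p = 0.0286; adjusted p = 0.0381). Low values such as the tertiary values of Fli1 are compressed by RMA, so its change may be understated, and the effect on this difference was not tested. Fli1 is also expressed in endothelium. Of 10 endothelial markers tested, none was called in limma, and their median log2 fold change was -0.32. At an unadjusted p under 0.05, 4 were lower and 1 higher, where 11.7% of all genes tested were lower. The 14 endothelial markers on the array, 4 of them below the dim filter, averaged 4.55 ± 0.13 in tertiary and 4.74 ± 0.14 in secondary gliomas (SD).

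Ikzf1, the zinc finger factor Ikaros, had log2 levels of 5.80, 4.97 and 5.41 in tertiary gliomas against 7.13, 8.40, 9.01 and 7.82 in secondary gliomas. Its secondary values were the most scattered of the 9 factors (SD 0.80), with secondary glioma 1 lowest, and they still began 1.33 above the highest tertiary value. The log2 fold change was -2.69 ± 0.43 (adjusted p = 0.00755), and the other probe of Ikzf1 read -4.001 (adjusted p = 0.000982 over all probes).

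Runx1 was the factor whose tertiary samples disagreed most. It stood at 5.43, 7.52 and 6.71 in tertiary gliomas 1 to 3, against 8.17, 8.37, 8.83 and 8.002 in secondary gliomas 1 to 4. Tertiary glioma 2 came within 0.48 of the lowest secondary sample, whereas tertiary glioma 1 was far below it. The log2 fold change of -1.79 ± 0.46 was not called (adjusted p = 0.0587), but the call was made without tertiary glioma 1, at -1.23 with an adjusted p of 0.0462, and without tertiary glioma 2, at -2.27 with an adjusted p of 0.0216. Its 6 probes were all lower in tertiary gliomas, between -1.79 and -0.43, and 1 of them was called, at -1.25 (adjusted p = 0.0286 over all probes). Their mean changed by -1.03 with an adjusted p of 0.0273. Spi1 and Runx1 differed in their changes by -0.86, a difference that did not pass (exact permutation p = 0.171).

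Irf5 depended on the probe. The chosen probe, 1449678_at, read 6.73, 7.504 and 7.45 in tertiary gliomas and 6.86, 7.35, 7.92 and 7.29 in secondary gliomas, with overlapping groups and a log2 fold change of -0.13 ± 0.29 (adjusted p = 0.8293; 95% interval -0.79 to 0.54). The other probe, 1460231_at, which is annotated to a RefSeq transcript of Irf5 where the chosen probe is annotated to an expressed sequence tag, read 5.23, 5.52 and 5.48 in tertiary gliomas and 6.61, 7.37, 8.07 and 7.24 in secondary gliomas. On that probe the groups did not overlap and the log2 fold change was -1.91 ± 0.31 (adjusted p = 0.0102 over all probes). The sign on the chosen probe turned without tertiary glioma 1 (0.12) and without secondary glioma 3 (0.06). The difference of -3.23 between the changes of Irf8 and Irf5 (exact permutation p = 0.0286; adjusted p = 0.0381) rests on the chosen probe of Irf5, and with all probes averaged it was -2.34.

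Mef2c fell in every probe. The chosen probe read 7.19, 5.84 and 6.18 in tertiary gliomas and 8.56, 8.94, 9.497 and 8.76 in secondary gliomas. Tertiary glioma 1 was its highest tertiary sample, the reverse of Irf8, Runx1 and Fli1, where it was the lowest. The log2 fold change was -2.53 ± 0.35 (adjusted p = 0.00364), all 5 Mef2c probes were called lower, and their log2 fold changes ran between -3.13 and -2.20. Of 9 neuron markers tested none was called in limma (2 higher at an unadjusted p under 0.05, Tubb3 at 1.81 ± 0.50 and Map2 at 0.56 ± 0.22). The 12 neuron markers on the array, 3 of them below the dim filter, averaged 5.85 ± 0.32 in tertiary and 5.65 ± 0.25 in secondary gliomas (SD).

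**Figure D2:**
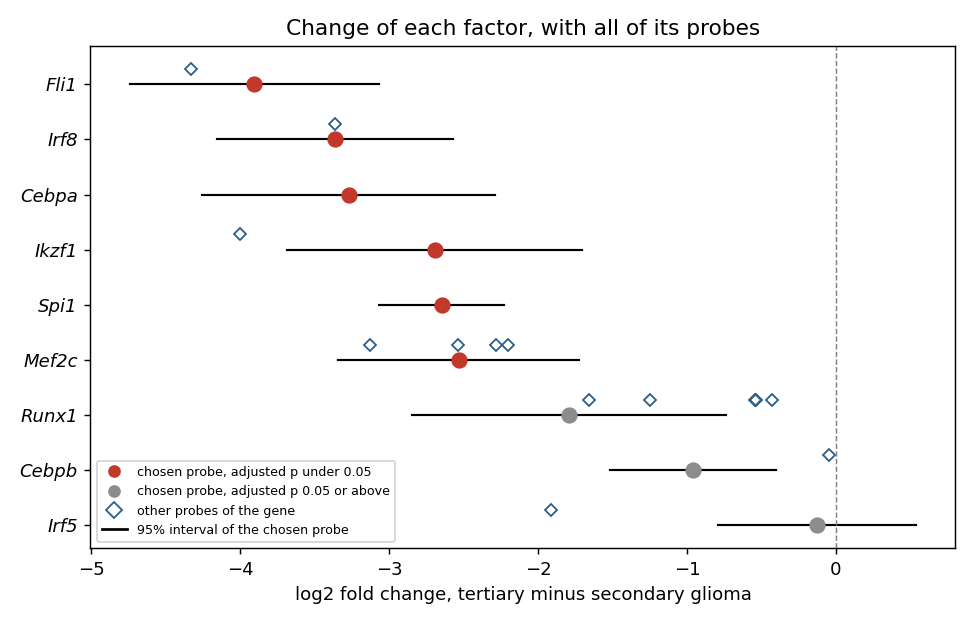
Log2 fold change of each factor, tertiary minus secondary glioma (horizontal axis), for the chosen probe with its 95% interval (circle and line, red where the adjusted p was under 0.05) and for the other probes of the gene (open diamonds). The probes of Irf8 lie close together, those of Mef2c spread between -3.13 and -2.20 and those of Runx1 between -1.79 and -0.43, and the pair of Irf5 probes lies at -0.13 and -1.91.

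Of the 23 probes of the 9 factors, 23 had a negative log2 fold change, 19 had every tertiary value below every secondary value and 15 were called lower. Of all probes tested on their own, 39.1% had a negative log2 fold change, 9.96% had every tertiary value below every secondary value and 4.85% were called lower. The probes of a gene share their samples and their transcript, so they are not separate replicates. The within-group SD of the factors ran between 0.09 and 1.05 in tertiary gliomas and between 0.30 and 0.80 in secondary gliomas, and the median SD over all genes tested was 0.24 in tertiary and 0.23 in secondary gliomas.

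Relatives of the factors in the same families lay on both sides of 0. Of 36 tested genes of the ETS, IRF, C/EBP, RUNX, Ikaros and MEF2 families outside the 9, 6 were called lower and 1 higher, with a median log2 fold change of 0.04. Among 17 ETS genes 4 were lower: Elf4 (-2.33 ± 0.29, adjusted p = 0.00220), a factor of natural killer and T cell development, Elf1 (-1.45 ± 0.26), which is expressed in blood cells, Etv3 (-0.83 ± 0.16) and Ets2 (-1.02 ± 0.24, adjusted p = 0.0481). With all probes of a gene averaged, 2 of the 17 were called, and Ets2 was not called without the dim filter. Of 5 other IRF genes Irf2 was called, at -0.98 ± 0.20 (adjusted p = 0.0229). Of 3 other C/EBP genes the stress-induced factor Ddit3 was called higher, at 0.97 ± 0.23 (adjusted p = 0.0436), a call that was not made with all probes averaged or without the dim filter. Mef2a was lower by -0.97 ± 0.23 (adjusted p = 0.0459) among 3 other MEF2 genes, and it was not called without the dim filter. None of 5 RUNX genes and partners was called in limma (1 at an unadjusted p under 0.05), with the corepressor gene Cbfa2t3 at -1.38 ± 0.40 (adjusted p = 0.0896) and Runx1t1 at 0.54 ± 0.30. With all probes averaged 1 of the 5 was called, Runx3 at -0.79 ± 0.20 (adjusted p = 0.0494), named after its value was seen. None of 3 other Ikaros genes was called in limma (1 at an unadjusted p under 0.05), with Ikzf5 at 0.58 ± 0.21 and Ikzf4 at 0.47 ± 0.23, both signs opposite to that of Ikzf1.

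**Figure D3:**
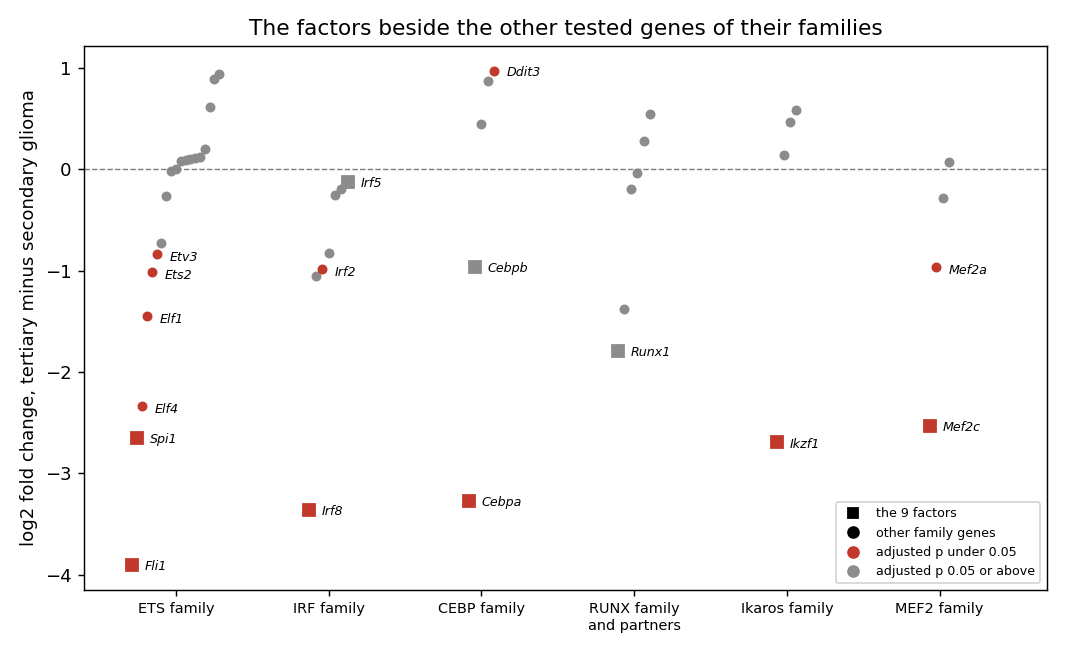
Log2 fold change, tertiary minus secondary glioma (vertical axis), of the 9 factors (squares) and of the other tested genes of their families (circles), with red for an adjusted p under 0.05. In each of the 6 families the lowest symbol is a factor of the set, and the circles lie between -2.33 and 0.97.

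Other transcription factors of blood cells and macrophages included falls of like size. Of 34 tested, 11 were called lower and none higher, with a median of -0.75, against 6.33% of all genes called lower. Lmo2, the LIM protein of blood stem cell complexes, stood at -3.90 ± 0.31 (adjusted p = 0.000191), the homeobox factor Hhex at -3.60 ± 0.39, the zinc finger factor Klf2 at -3.03 ± 0.32 and the NF-kappaB subunit Rel at -2.79 ± 0.39 (adjusted p = 0.00374). The tertiary mean of Hhex, 4.10 ± 0.24 (SD), was close to the dim filter.

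Receptors through which myeloid cells receive growth signals fell with the factors. Of 9 tested receptors and ligands 7 were called lower, with a median of -3.24, against 6.33% of all genes called lower. The receptor of colony-stimulating factor 1, Csf1r, had log2 levels of 8.61, 8.29 and 6.997 in tertiary gliomas and 11.94, 12.08, 12.54 and 12.22 in secondary gliomas (log2 fold change -4.23 ± 0.37, adjusted p = 0.000306). Csf3r, the granulocyte factor receptor, stood at -4.38 ± 0.32, Tgfbr2, a TGF-beta receptor, at -4.38 ± 0.31 and Csf2rb, the shared receptor chain of several cytokines, at -3.65 ± 0.25. The ligand Csf1 was lower by -1.96 ± 0.24, and Kit (0.03 ± 0.24) and Kitl (0.16 ± 0.38), a receptor and its ligand, were not called. Csf1, Kit and Kitl were named after their values were seen.

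Of 22 tested genes known as bound or driven by Spi1 in myeloid cells, 21 were lower and none higher, with a median of -4.24. Among all genes tested 6.33% were called lower. The leukocyte phosphatase Ptprc stood at -5.37 ± 0.32, the Fc receptor Fcgr1 at -4.36 ± 0.29 and the lysosomal protein Cd68 at -3.97 ± 0.24. Tlr4, the gene not called and named after its value was seen, had -2.40 ± 0.96 (adjusted p = 0.183). The list holds 9 genes of the microglia and macrophage list, and of the 13 tested genes outside that list 12 were lower, with a median of -4.26. Those 13 still hold genes of leukocytes, such as Ptprc, Fcgr1 and Csf3r. Their count therefore cannot separate Spi1 targets from the amount of myeloid RNA.

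The markers of cell types were set beside the factors, and 6.33% of all genes tested were called lower. The mean level of the microglia and macrophage list was 6.65, 6.76 and 6.01 in tertiary gliomas and 9.87, 10.17, 10.72 and 10.07 in secondary gliomas, and its 25 tested genes had a median log2 fold change of -4.09. Trem2 (-4.0001 ± 0.24), Fcer1g (-4.12 ± 0.24) and Mpeg1 (-3.81 ± 0.24) were among the 24 called, and the scavenger receptor Cd163 was not (0.04 ± 0.45, named after its value was seen). Of these 25 markers, 23 had a lower log2 fold change than Spi1, 19 a lower one than Irf8 and than Cebpa, and 15 a lower one than Fli1. Of 5 tested granulocyte and monocyte markers 3 were lower, S100a9 at -3.45 ± 0.53, S100a8 at -3.42 ± 0.54 and Csf3r, which is also in the receptor and Spi1 lists. Camp (-0.11 ± 0.21) and Mmp9 (-0.21 ± 0.15), named after their values were seen, were not called, and 6 others were below the dim filter. Of 5 dendritic cell markers 4 were lower, among them the integrin Itgax at -4.86 ± 0.31 and Cd74 at -4.68 ± 0.34, and 4 others were below the dim filter. Bst2 (-1.43 ± 0.21) and Siglech, which is shared with the microglia list, were also among the 4. Zbtb46 was not called (0.07 ± 0.18, named after its value was seen). None of 6 tested lymphocyte and natural killer markers was called in limma, nor at an unadjusted p under 0.05, with Cd79b at -0.34 ± 0.26 and Pax5 at 0.11 ± 0.13, and 8 were below the filter.

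Secondary glioma 3 had the highest value of the 4 secondary gliomas in all 9 factors and the highest mean of the microglia and macrophage list. Secondary glioma 1 had the lowest secondary value in 7 factors and the lowest mean of that list. Among tertiary gliomas Cebpa and Cebpb had the order of the list mean, and the other 7 factors had other orders. Tertiary glioma 3 had the lowest list mean, but its Irf8 (6.16) and Fli1 (4.23) were the highest of the 3, and tertiary glioma 1 had the lowest value in 5 factors with a list mean close to that of tertiary glioma 2. With 3 samples this order was not tested.

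**Figure D4:**
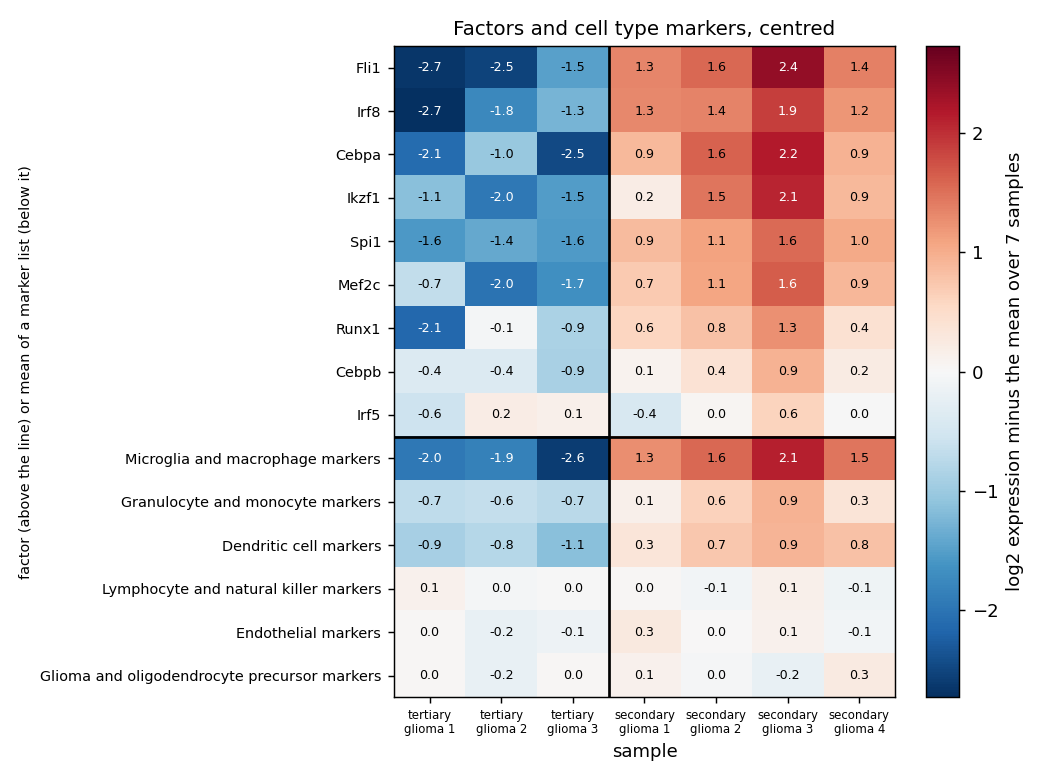
Log2 expression minus the mean over the 7 samples, as colour and number, for the 9 factors (above the line) and for the mean of 6 lists of cell type markers (below it), in tertiary gliomas (left) and secondary gliomas (right). The rows of all factors except Irf5 change sign between the groups, as do those of the microglia and macrophage, granulocyte and monocyte, and dendritic cell lists. The lymphocyte, endothelial and glioma rows stay within 0.3 of 0.

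The labelled glioma cells carried their defining markers in every sample. Pdgfra, the PDGF receptor of oligodendrocyte precursors, lay between 10.94 and 11.15 in tertiary and between 10.73 and 11.11 in secondary gliomas. Olig2 and Sox10 had log2 fold changes of 0.17 ± 0.24 and 0.30 ± 0.17 and were not called. Of 13 tested glioma and precursor markers only Pdgfb was called, lower at -1.67 ± 0.25 (adjusted p = 0.00570), and the sources used here do not say whether its probe reads the transgene. Of 9 astrocyte markers none was called in limma (2 lower at an unadjusted p under 0.05), with Aqp4 at -1.68 ± 0.69 and Aldh1l1 at -0.60 ± 0.21.

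The genes whose pattern over the 7 arrays lay nearest to each factor were found by the root mean square difference of log2 values, each centred on the gene's own mean. The nearest to Spi1 were Zfp36, which destabilises cytokine mRNAs (0.11), the TGF-beta inhibitor Smad7 (0.11) and the kinase gene Bmp2k (0.12). Irf8 was nearest to the inflammasome gene Naip2 (0.21), Txnip (0.27) and the RNA sensor Tlr7 (0.27), and Fli1 to Lmo2 (0.27), Parvg (0.31) and Hcls1 (0.31). The closest to Cebpa were B4galt1 (0.30), the myeloid lectin Clec5a (0.31) and Slc15a3 (0.31), and those to Cebpb were Ets2 (0.09), Adam15 (0.10) and Jak3 (0.12). Ikzf1 lay nearest to Renbp (0.20), Pnpla7 (0.21) and Unc93b1 (0.25), Mef2c to Irak2 (0.18), Timp2 (0.20) and Tifa (0.21), and Runx1 to Npl (0.22), Dapk1 (0.26) and Ndrg1 (0.32). Irf5, on its chosen probe, lay nearest to Fam217b (0.09), Cep152 (0.11) and Maml1 (0.11), none of which was called. Among the 9 themselves, Ikzf1 and Mef2c (0.35), Irf8 and Fli1 (0.38), and Cebpb and Irf5 (0.54) were each other's nearest. These distances describe the 7 arrays and carry no test, and the probe names of Smad7, Adam15, Ndrg1 and Maml1 mark them as open to binding by other, similar transcripts.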

How the data were processed

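Per the submitters' processing notes, the authors made the values with RMA, and the deposited unit is log2 expression, 1 value per probe and array. The sources used here name neither the RMA version nor its software, and the values themselves showed the log base. RMA compresses differences of dim probes. Per the labels' protocols, 30 ng of RNA was amplified and labelled with biotin. Array medians lay between 5.57 and 5.64. With 7 arrays, precision is limited by their number. No batch was tested, since detection calls, slides and scan dates were not used here.

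For the fit of genes, those of 45101 probes with 1 gene symbol in the platform annotation were used, and control probes were left out. A gene was read from its probe with the highest mean. Genes with a mean below the 25th percentile, a log2 value of 3.99, were left out. The fit of single probes took all 33826 probes that passed this filter, whatever their annotation and without removing control probes. Its p-values were adjusted over those probes. The difference between tertiary and secondary gliomas was fitted in limma 3.58.1 (R 4.3.3; lmFit, then eBayes with defaults), and p-values were adjusted by Benjamini-Hochberg over 14453 genes, with 0.05 as the threshold. SE is that of limma. The differences between the changes of 4 pairs of factors were tested with an exact permutation test over 35 splits. Promoters were taken from RefSeq, and motifs were searched on both strands. Figures were drawn with matplotlib 3.10.9.

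The factors and the 17 gene lists were chosen with earlier results of these data known. Named are the 9 factors, up to 4 called genes of each list by lowest p (2 where none was called), 3 genes nearest in pattern to each factor, and Pdgfra, Olig2 and Sox10. Clones and predicted genes were passed over. Marker lists overlap. Names from outside this rule are marked in the text. The limma fit with default settings and the permutation test were tried on simulated data, and the alternative fits were not. No pair of arrays shared more than 5.39% of its values, so each sample counted as 1. Alternatives were all probes averaged, the dim filter dropped or set at the 50th percentile, median centring, quantile normalization, array weights, eBayes with a trend and robust settings, the replicate number as a block, and each sample left out in turn.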

Additional observations from a re-analysis of the deposited data

Results flagged for a closer look

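In secondary gliomas the mean level of the IRF family list (6 genes on the array outside the 9 factors) was 6.68 in secondary glioma 1, against 7.03, 7.09 and 7.04 in secondary gliomas 2 to 4. The gap between secondary glioma 1 and the nearest of the others was 0.855 of the whole range, above Dixon's 95% critical value for 4 samples. The mean of the RUNX list was 6.75 in secondary glioma 4, against 6.93, 6.92 and 6.94 in the others, with a gap of 0.886 of the range. None of the 9 factors passed this limit. Chance flags about 1 in 20 such groups, and 26 were examined.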

How the results depend on the processing

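The number of factors called, 6, lay between 5 and 8 over 15 alternatives. Spi1, Irf8, Cebpa, Fli1 and Mef2c were called under all 15. Ikzf1 was called under 14, at -2.78 with an adjusted p of 0.0572 under the replicate block. The labels do not say whether same-numbered samples are related, and the correlations of their deviations (0.04, -0.14 and 0.01) cannot settle it. Under the block 636 genes were called in place of 1066. Runx1 was called with all probes averaged (-1.03), with the 50th percentile filter (-1.79, adjusted p = 0.0433), with array weights (-1.43, adjusted p = 0.0279) and in 2 of 7 fits that left out a sample, which ranged between -2.27 and -1.23. Cebpb was called with the 50th percentile filter (-0.96) and with array weights (-0.99). Irf5 was called under none of the 15. It stood at -1.02 with all probes averaged (limma, adjusted p = 0.0752), turned to 0.071 with array weights, and ran between -0.29 and 0.12 as samples were left out. Array weights called 1933 genes, and leaving out a sample gave between 647 (without tertiary glioma 2) and 1857 (without tertiary glioma 1), with 653 without tertiary glioma 3. The difference between Spi1 and Runx1 was -1.61 with all probes averaged (exact permutation p = 0.0286). The signs of the other pair differences held under each alternative run. Median centring put the median of all genes at 0.13, against 0.09. The causes of these shifts were not tested. Leaving out a sample leaves the exact test unable to pass 0.05, so only its values were compared.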

Other observations

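Some close relatives of the factors stood on the other side of 0. The ETS genes Erg and Ets1, which act in endothelium and lymphoid cells and are relatives of Fli1, had log2 fold changes of 0.94 ± 0.31 and 0.89 ± 0.31 (limma, adjusted p = 0.121 and 0.134), and Cebpd stood at 0.87 ± 0.28 (adjusted p = 0.118) where Cebpa fell. Of the interferon regulatory factors, Irf1 and Irf7 had -1.05 ± 0.28 and -0.83 ± 0.25 (adjusted p = 0.0713 and 0.0935). These genes were named after their values were seen, and none was called.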
